A study of Mus musculus with 9 samples.

Results

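The genes described here are 10 members of the integrated stress response in mouse: the transcription factor Atf4 and 9 genes known as its targets or partners, namely Ddit3, Atf3, Atf5, Trib3, Chac1, Asns, Ppp1r15a, Sesn2 and Vldlr. They were chosen by name. A probe set was taken for a gene when the array annotation gave it that gene's symbol and no other. Each of the 10 genes was measured by 1 probe set, out of 19934 genes with such a probe set. The 9 one-colour arrays came from aortic valve explants of C57BL/6J pups at postnatal day 1. Each array held a pool of valves from 5 to 6 pups, kept for 48 h on floating filters in DMEM with 10% fetal bovine serum, 4 mM glutamine and antibiotics. The treatments, on 3 arrays each, were LE540, an antagonist of the retinoic acid receptors, all-trans retinoic acid (ATRA) at 1 µmol/L in DMSO, and DMSO alone at 0.001%. The labels give no dose and no vehicle for LE540. A difference of LE540 from DMSO or ATRA explants therefore cannot be told apart from a difference of vehicle. A pool gives no value for a single pup.

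In the integrated stress response, kinases that sense amino acid shortage, misfolded protein in the endoplasmic reticulum (ER), viral RNA or haem shortage phosphorylate the initiation factor eIF2. Most protein synthesis then slows, while the Atf4 messenger RNA is translated more, and the Atf4 protein binds with C/EBP factors to composite elements in genes for amino acid supply, redox balance and cell fate. Control of Atf4 is thus largely translational, and an array measures RNA only. Retinoic acid receptors are ligand-gated transcription factors that act in heart and valve development.

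Promoter windows were read for the 10 genes because they are a place where a shared Atf4 element could lie. RefSeq promoter windows of GRCm38.p6 run from 250 bases before to 50 bases after each annotated start, and 12 of them belong to the 10 genes. The composite C/EBP-ATF element, searched as TGATGNAA on both strands (TTNCATCA on the other), was present for 5 of the 10 genes, or 50%, against 4.51% of the 27025 genes with a window. The cyclic AMP response element TGACGTCA, which reads the same on both strands and shares no match with the first, was present for 1 of the 10, against 2.03% of genes. The stretches around these matches are shown 5′ to 3′ on the gene's strand, with the motif in capitals.
Atf3 (chr1:191183416-191183463, minus strand): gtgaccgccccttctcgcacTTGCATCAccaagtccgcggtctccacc
Trib3 (chr2:152344019-152344066, minus strand): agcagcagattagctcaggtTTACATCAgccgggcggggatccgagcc
Chac1 (chr2:119351029-119351076, plus strand): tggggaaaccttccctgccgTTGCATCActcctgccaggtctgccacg
Asns (chr6:7693205-7693252, minus strand): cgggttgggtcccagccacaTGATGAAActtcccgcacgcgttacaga
Vldlr (chr19:27216800-27216847, plus strand): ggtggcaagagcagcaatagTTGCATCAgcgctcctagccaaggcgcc
Ppp1r15a (chr7:45526253-45526300, minus strand): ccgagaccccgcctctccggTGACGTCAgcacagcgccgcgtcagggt
Counted from the annotated start, the composite element begins at -110 in Atf3, 15 in Trib3, -193 in Chac1, -23 in Asns and -200 in the second window of Vldlr. In Ppp1r15a the cyclic AMP response element begins at -12. The letters of either motif are not in the windows of Atf4, Ddit3, Atf5 and Sesn2. A match is a description of the letters and not evidence of binding.

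Values are log2 of the deposited RMA intensity (RMA removes background signal, brings the arrays to a common distribution and gives 1 value for all probes of a set), and differences were tested with limma over all 9 arrays. A gene is said to have risen or fallen when its adjusted p, by the Benjamini-Hochberg method over 23397 probe sets, was under 0.1. LE540 replicate 1 stood apart from the other arrays. It lay at 63.7 on the first principal component, which held 32.5% of the variance, against -21.5 to 13.9 for the other 8 arrays. Across probe sets its log2 values correlated with those of the others at r = 0.956 to 0.969, while the lowest r among the other 8 arrays was 0.969. Values without this array are therefore given beside the results. All 10 stress response genes lay above the lower quartile of every array, and 8 of them, all but Atf3 and Trib3, above the median of every array.

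All 10 genes were higher in LE540 than in DMSO explants, as were 54.7% of all probe sets, and for none of the 10 did the LE540 and DMSO arrays overlap. Of all probe sets, 6.74% were higher without overlap. The log2 change ran between 0.53 for Atf5 and 2.12 for Asns, with a median of 1.27, against 0.02 over all probe sets. It exceeded 1 for 7 of the 10 genes and for 0.517% of all probe sets. At an unadjusted p under 0.05 all 10 were called higher, against 4.47% of probe sets (4.33% were called lower). Only Ddit3 passed after adjustment, in a comparison in which 0.0299% of probe sets passed (7 of 23397, all higher and all over 2-fold). Without LE540 replicate 1 all 10 genes were higher at an unadjusted p under 0.05, as were 2.63% of probe sets. The median log2 change was then 1.04, and Chac1 was the only probe set of 23397 (0.00427%) to pass. Leaving out an array cannot make separate groups overlap, so overlap was not counted again. The members were chosen with earlier results of these arrays known, so these counts describe the list and are no test of it.

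**Figure D1:**
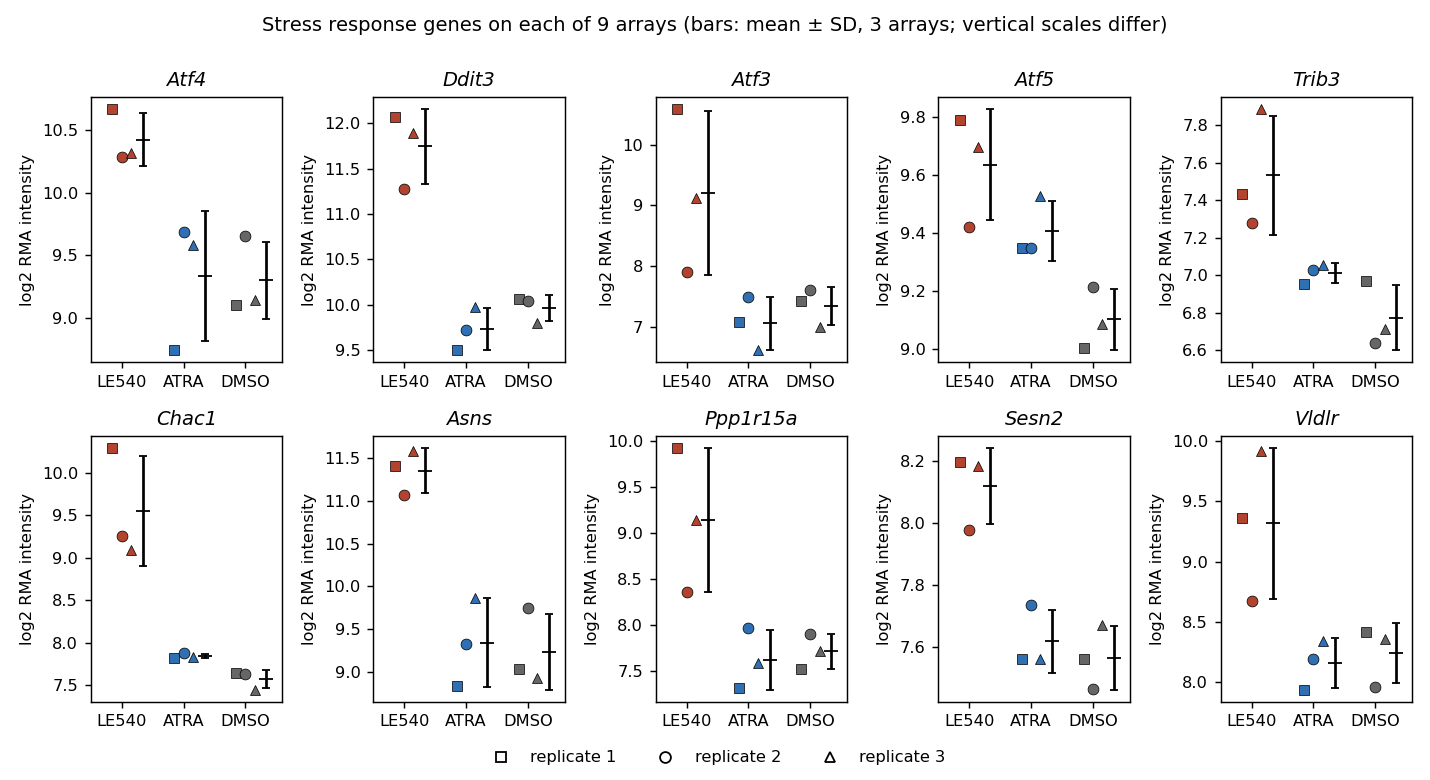
Log2 RMA intensity (vertical axis, scaled separately for each gene) of the 10 genes on each array, in LE540, ATRA and DMSO explants from left to right. Symbols mark the replicate number and bars the mean ± SD of 3 arrays; the LE540 points lie above all DMSO points in all 10 panels and above all ATRA points in every panel except that of Atf5.

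Atf4 (probe set 10425364), the transcription factor at the centre of the response, had log2 values of 10.67, 10.29 and 10.31 in LE540, 8.74, 9.69 and 9.59 in ATRA and 9.11, 9.66 and 9.15 in DMSO explants. The 3 LE540 arrays were the 3 highest, and ATRA and DMSO arrays overlapped. The log2 change was 1.12 (SE 0.26, 95% interval 0.53 to 1.71, limma adjusted p = 0.37) between LE540 and DMSO, a 2.17-fold difference in intensity that did not pass. Without LE540 replicate 1 it was 1.00 (adjusted p = 0.834). Between ATRA and DMSO it was 0.04, with an interval of -0.56 to 0.63.

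Ddit3 (probe set 10366881) encodes CHOP, a C/EBP family factor that is induced by Atf4 and linked to cell death under prolonged stress. Its log2 values were 12.07, 11.27 and 11.89 in LE540, 9.50, 9.72 and 9.97 in ATRA and 10.06, 10.03 and 9.79 in DMSO explants. Even the lowest LE540 array exceeded the highest of the other 6 arrays by more than 1 log2 unit. Ddit3 rose 3.43-fold in LE540 against DMSO explants (log2 change 1.78, SE 0.21, 95% interval 1.30 to 2.26, limma adjusted p = 0.0917). It rose 4.03-fold against ATRA explants (log2 change 2.01, SE 0.21, adjusted p = 0.0123). The rise against DMSO was near the threshold: the adjusted p was 0.226 without LE540 replicate 1, 0.378, 0.176 and 0.438 without DMSO replicates 1, 2 and 3, and 0.192 and 0.134 without ATRA replicates 2 and 3. These last 2 arrays enter only through the shared estimate of the spread. The log2 change itself stayed between 1.62 and 2.01 over the 20 alternative analyses.

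Atf3 (probe set 10361091), a transcription factor that represses as well as activates stress genes, had log2 values of 10.60, 7.90 and 9.12 in LE540, 7.08, 7.48 and 6.61 in ATRA and 7.42, 7.61 and 7.00 in DMSO explants. Its LE540 arrays spanned 2.70 log2 units, the widest span of the 10 genes, and the lowest of them exceeded the highest DMSO array by a small margin. The log2 change between LE540 and DMSO was 1.86 with an SE of 0.57 (95% interval 0.56 to 3.17, limma adjusted p = 0.511), and 1.17 without LE540 replicate 1 (adjusted p = 0.87), which is a drop of over 1.5 times in fold change.

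Atf5 (probe set 10562905), a close relative of Atf4 that is likewise translated more when eIF2 is phosphorylated, had log2 values of 9.79, 9.42 and 9.70 in LE540, 9.35, 9.35 and 9.53 in ATRA and 9.00, 9.21 and 9.09 in DMSO explants. Both treatments lay above all DMSO arrays, and LE540 and ATRA overlapped. The log2 change was 0.53 (SE 0.12, limma adjusted p = 0.369; 0.46 without LE540 replicate 1) between LE540 and DMSO and 0.31 (SE 0.12, adjusted p = 0.999) between ATRA and DMSO. The difference between LE540 and ATRA was 0.23, with a 95% interval of -0.05 to 0.51, so neither an equal level nor a small rise can be read from it.

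The feedback genes of the pathway were also higher with LE540. Trib3 (probe set 10488608), a pseudokinase that is induced by Atf4 and Ddit3 and restrains Atf4, had log2 values of 7.43, 7.28 and 7.89 in LE540, 6.95, 7.03 and 7.05 in ATRA and 6.97, 6.64 and 6.71 in DMSO explants. The LE540 arrays lay above the other 6. Its log2 change between LE540 and DMSO was 0.76 (SE 0.16, limma adjusted p = 0.328), and 0.81 without LE540 replicate 1 (adjusted p = 0.64).

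Ppp1r15a (probe set 10563338) encodes GADD34, the inducible phosphatase subunit that reverses eIF2 phosphorylation. It had log2 values of 9.93, 8.35 and 9.14 in LE540, 7.32, 7.97 and 7.58 in ATRA and 7.52, 7.90 and 7.71 in DMSO explants. All 3 LE540 arrays were higher than the other 6, with a spread of 1.57 log2 units among them. The log2 change was 1.43 (SE 0.35, limma adjusted p = 0.387) between LE540 and DMSO and 1.04 (adjusted p = 0.731) without LE540 replicate 1. Only without LE540 replicate 2 did it pass (adjusted p = 0.0683).

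Among the effector genes, Asns (probe set 10543067), which encodes asparagine synthetase and is a classical Atf4 target, had the largest log2 change of the 10. Its log2 values were 11.41, 11.07 and 11.59 in LE540, 8.83, 9.33 and 9.87 in ATRA and 9.03, 9.74 and 8.93 in DMSO explants. The LE540 arrays formed a tight group more than 1 log2 unit above every other array, while ATRA and DMSO arrays overlapped. Against DMSO the log2 change was 2.12 (SE 0.30, 95% interval 1.45 to 2.79, 4.35-fold), the ninth highest change among the 23397 probe sets, but it did not pass (limma adjusted p = 0.122). Without LE540 replicate 1 it was 2.09 (adjusted p = 0.384). Against DMSO it passed without ATRA replicate 1 (0.0951), LE540 replicate 2 (0.0674) or LE540 replicate 3 (0.0797). Against ATRA Asns rose 4.04-fold (log2 change 2.01, SE 0.30, adjusted p = 0.0451). Leaving out LE540 replicate 1 (0.143) or ATRA replicate 1 (0.109) ended that call.

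Chac1 (probe set 10474972) encodes an enzyme that degrades glutathione. Its log2 values were 10.29, 9.26 and 9.09 in LE540, 7.82, 7.88 and 7.84 in ATRA and 7.64, 7.63 and 7.45 in DMSO explants. LE540 replicate 1 was about 1 log2 unit above the other LE540 arrays, and the lowest LE540 array was over 1 unit above all ATRA and DMSO arrays. The log2 change between LE540 and DMSO was 1.97 (SE 0.27, 3.92-fold, limma adjusted p = 0.122). Without LE540 replicate 1 it was smaller, 1.60, but the arrays agreed more closely, and it passed (95% interval 1.37 to 1.84, adjusted p = 0.0117). It also passed without LE540 replicate 2 (0.0563) or replicate 3 (0.0672). Against ATRA Chac1 rose 3.25-fold (log2 change 1.70, SE 0.27, adjusted p = 0.0537), and 1.33 in log2 without LE540 replicate 1 (adjusted p = 0.00743). This second call was lost without ATRA replicate 1, 2 or 3 (0.166, 0.107 and 0.164) and without DMSO replicate 1, 2 or 3 (0.121, 0.106 and 0.113).

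Sesn2 (probe set 10516932) encodes sestrin 2, which senses leucine and restrains the growth kinase complex mTORC1. It had log2 values of 8.20, 7.98 and 8.19 in LE540, 7.56, 7.73 and 7.56 in ATRA and 7.56, 7.46 and 7.67 in DMSO explants. The LE540 arrays lay above the other 6 and had the narrowest LE540 spread of the 10 genes, 0.22 log2 units. The log2 change between LE540 and DMSO was 0.55 (SE 0.11, 95% interval 0.31 to 0.80, limma adjusted p = 0.256), and 0.52 without LE540 replicate 1 (adjusted p = 0.595).

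Vldlr (probe set 10462281) encodes the very low density lipoprotein receptor, which binds apolipoprotein E and reelin and is described as an Atf4 target under ER stress. Its log2 values were 9.36, 8.67 and 9.92 in LE540, 7.94, 8.19 and 8.35 in ATRA and 8.41, 7.96 and 8.36 in DMSO explants. Here replicate 3 and not replicate 1 was the highest LE540 array. The log2 change between LE540 and DMSO was 1.07 (SE 0.29, limma adjusted p = 0.437) and scarcely differed without LE540 replicate 1 (1.05, adjusted p = 0.866). Without LE540 replicate 2 it passed (adjusted p = 0.0861).

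**Figure D2:**
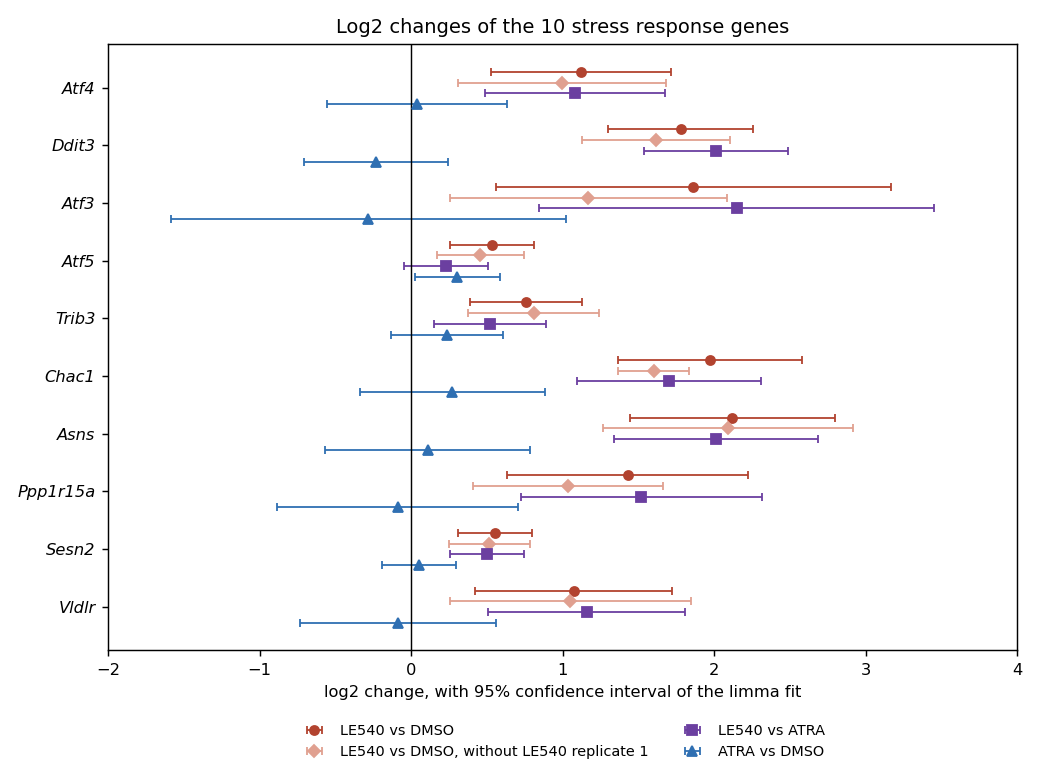
Log2 change of each gene (horizontal axis) with its 95% confidence interval from the limma fit, for LE540 vs DMSO, LE540 vs DMSO without LE540 replicate 1, LE540 vs ATRA and ATRA vs DMSO. The LE540 vs DMSO intervals of all 10 genes lie above 0, while among ATRA vs DMSO intervals only that of Atf5 excludes 0.

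No change of these genes between ATRA and DMSO passed the test. Of the 10, 6 were higher and 4 lower with ATRA (48.5% of all probe sets were higher), and the median log2 change was 0.04, against -0.01 over all probe sets. Limma called none of the 10, in a comparison in which 0.0812% of probe sets passed (19 of 23397, or 29 in a fit blocked by replicate; 0.0598% passed and changed over 2-fold). Only Atf5 had an unadjusted p under 0.05 (0.0345), when 2.34% of probe sets were higher and 2.36% lower at that level. Without LE540 replicate 1, which enters here only through the shared spread, Atf5 and Chac1 both did (limma unadjusted p = 0.0251 and 0.0184). Atf5 and Chac1 (log2 change 0.27) were higher with no overlap, as were 4.97% of all probe sets. The most negative log2 changes were -0.28 for Atf3 (95% interval -1.59 to 1.02) and -0.23 for Ddit3 (-0.71 to 0.25). Trib3 had a log2 change of 0.24 (-0.13 to 0.61), Asns 0.11 (-0.57 to 0.78), and Sesn2 0.05 (-0.19 to 0.30). Those of Ppp1r15a and Vldlr were both -0.09, with intervals of -0.88 to 0.70 and -0.73 to 0.56. Apart from those of Sesn2 and Atf5, each interval of the 10 genes includes a change of over 1.5-fold in at least 1 direction.

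The direct comparison of LE540 with ATRA tests whether levels differed between explants given the 2 compounds, with the vehicle of LE540 again unknown. All 10 genes were higher with LE540, as were 56.9% of all probe sets, with a median log2 change of 1.34 against 0.03 over all probe sets. All except Atf5 were higher without overlap and at an unadjusted p under 0.05, as were 6.24% and 4.72% of all probe sets (4.82% were lower at that p). Ddit3, Asns and Chac1 rose, in a comparison in which 0.192% of probe sets rose (45 of 23397). In both directions 0.603% (141) passed, 0.419% also changed over 2-fold, and a fit blocked by replicate called 221, among them the same 3 genes. Without LE540 replicate 1 the median was 1.13, and Ddit3 (adjusted p = 0.0404) and Chac1 passed while 0.0641% of probe sets rose (3.84% at an unadjusted p under 0.05). As each array was left out, 1 to 7 of the 10 passed, with Ddit3 passing each time. The number of all probe sets passing also changed with the array left out, as given at the end. With the list chosen after earlier results of these arrays were known, these counts describe it and are no test of it. The genes that did not pass were Atf3 (log2 change 2.15, limma adjusted p = 0.249), Ppp1r15a (1.52, 0.179), Vldlr (1.16, 0.206), Atf4 (1.08, 0.192), Trib3 (0.52, 0.336), Sesn2 (0.50, 0.148) and Atf5 (0.23, 0.611). LE540 vs DMSO and LE540 vs ATRA share the LE540 arrays, and ATRA vs DMSO shares arrays with both, so the 3 sets of changes are not independent.

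The 3 LE540 arrays differed among themselves in the same order for most genes. Replicate 2 was the lowest for 9 of the 10 genes, all but Chac1, and replicate 1 was the highest for 7, with replicate 3 the highest for Trib3, Asns and Vldlr. The mean centred log2 value of the 10 genes was 1.24, 0.42 and 0.95 on LE540 replicates 1, 2 and 3. It lay between -0.62 and -0.30 on ATRA arrays and between -0.55 and -0.35 on DMSO arrays. Thus even LE540 replicate 2 lay above every array of the other groups. Y-linked genes, which follow the sex of the pooled pups, stood at 1.04, -1.52 and 1.25 on LE540 replicates 1, 2 and 3. Replicate 2 was thus also the lowest of these arrays for Y-linked genes. It was the highest of them for endothelial markers (0.32, against -0.64 and -0.25) and melanocyte markers (0.55, against -0.19 and -0.11). For valve interstitial, cardiomyocyte and macrophage markers it lay between the other LE540 arrays. A link of any of these with the order above was not tested. The median SD of the 10 genes was 0.37 in LE540, 0.22 in ATRA and 0.18 in DMSO explants on the log2 scale, against 0.20, 0.15 and 0.13 over all probe sets.

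After each group's mean was removed, the 45 pairs of the 10 genes had a median correlation of 0.47 over the 9 arrays, and 41 of the 45 were positive. Over the 6 ATRA and DMSO arrays, here with no group mean removed, the median was 0.08, with 26 positive. These medians are different measures and cannot be set against each other. The genes share the same arrays, so these are descriptions only.

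Other genes of the pathway were read from lists that name its steps. The 12 measured genes upstream, the eIF2 kinases, eIF2 and eIF2B subunits and the constitutive phosphatase subunit Ppp1r15b (Eif2s1 was not analysed here), had a median log2 change of 0.10 between LE540 and DMSO, and 8 were higher. None passed in limma in any of the 3 comparisons, with 1 higher and 1 lower at an unadjusted p under 0.05 in LE540 vs DMSO, 1 lower in ATRA vs DMSO and 1 higher in LE540 vs ATRA. The largest changes were those of Eif2ak2, the kinase activated by double-stranded RNA (log2 change -1.11, adjusted p = 0.535), and Eif2b2, a subunit of the nucleotide exchange factor (0.75, 0.541). These were -0.65 and 0.61 without LE540 replicate 1, and the median of the 12 was 0.18 with 8 higher. These kinases act through phosphorylation, which RNA levels do not show.

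Of the 8 partners of Atf4 and Ddit3, 6 were higher with LE540 than with DMSO, with a median log2 change of 0.38. None passed, and 4 had an unadjusted p under 0.05, all higher. Jdp2, a repressor related to Atf3, had a log2 change of 0.93 (limma adjusted p = 0.203), and Cebpg, a C/EBP factor that pairs with Atf4, one of 0.74 (0.437). The median of the 8 was 0.25 without LE540 replicate 1, with 7 higher, and the changes of Jdp2 and Cebpg were 0.76 and 0.59. In ATRA vs DMSO the median was 0.06 and in LE540 vs ATRA 0.33, again with none passing and, at an unadjusted p under 0.05, 1 higher and 1 lower, and 3 higher.

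Paralogues of the 10 genes had changes of both signs. Of 8 measured paralogues, 2 were higher and 6 lower with LE540 than with DMSO, with a median log2 change of -0.24, none passing and 1 higher at an unadjusted p under 0.05. Sesn1, a sestrin known as a p53 target, had a log2 change of -0.68 (limma adjusted p = 0.591), where Sesn2 had 0.55. The median was -0.10 without LE540 replicate 1, with 3 higher and 5 lower, and Sesn1 had -0.29. Jdp2, listed here as a relative of Atf3, is the 0.93 given above. None passed in ATRA vs DMSO (median -0.13, 1 higher at an unadjusted p under 0.05) or in LE540 vs ATRA (median 0.02, 1 higher and 1 lower).

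Genes of amino acid synthesis and transport that are known Atf4 targets were higher alongside the 10. Of 18 measured (Pycr1 was not analysed here), 17 were higher with LE540 than with DMSO, with a median log2 change of 1.07. Of the 18, 14 were higher with no overlap, as were 6.74% of all probe sets. Mthfd2, a mitochondrial enzyme of folate metabolism, rose (log2 change 1.78, limma adjusted p = 0.0917), as did Slc6a9, a glycine transporter (1.56, 0.0955). Their adjusted p ran over 0.0671 to 0.438 and 0.0108 to 0.582 as each array was left out, and neither passed in a fit blocked by replicate (0.114 and 0.164). Without LE540 replicate 1 the median was 0.91 and none passed, with 14 higher at an unadjusted p under 0.05. Between 0 and 7 passed as each of the 9 arrays was left out. With ATRA 11 of the 18 were higher than with DMSO, the median was 0.04, and none passed, with 3 lower at an unadjusted p under 0.05. Lower with no overlap in ATRA than in DMSO explants were 4 of the 18, as were 6.34% of all probe sets.

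Against ATRA, 8 of these 18 genes rose in LE540 explants, as did 0.192% of all probe sets. Without LE540 replicate 1, 6 did so (0.0641% of all probe sets), and 3 to 11 did as each array was left out. Slc7a11, the cystine transporter subunit, had log2 values of 10.88, 9.95 and 10.69 in LE540, 6.09, 7.80 and 7.05 in ATRA and 8.14, 10.02 and 8.08 in DMSO explants. It was higher in LE540 than in ATRA explants on every array, whereas 1 DMSO array lay within the LE540 range. Its log2 change was 3.53 against ATRA (limma adjusted p = 0.0608; 0.0347 to 0.21 as each array was left out) and 1.76 against DMSO (0.529). Slc3a2, its partner subunit, rose by 1.81 in log2 against ATRA (adjusted p = 0.0619; 0.0602 to 0.207). Mthfd2 (1.77, 0.0185) and Slc6a9 (1.54, 0.0239) rose whichever array was left out, with adjusted p up to 0.0713 and 0.0952. The other 4 were Psat1, Phgdh, Shmt2 and Gpt2, which act in serine, glycine and alanine synthesis.

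Of 17 measured cytosolic tRNA synthetases, which load amino acids onto tRNA and several of which are Atf4 targets, 15 were higher with LE540 than with DMSO, with a median log2 change of 0.59. None passed in limma, and 10 had an unadjusted p under 0.05, all higher. The median was 0.57 without LE540 replicate 1. Aars, Dars and Mars were not analysed here. Against ATRA all 17 were higher (median 0.57), and Sars (log2 change 1.20, adjusted p = 0.0847), Cars (0.88, 0.0696) and Nars (0.60, 0.0764) rose. Against ATRA but without LE540 replicate 1, 16 were higher (median 0.55) and none passed, with 10 higher at an unadjusted p under 0.05, and 0 to 4 passed as each array was left out. In the fit blocked by replicate, Nars did not pass (0.105) and Yars did (0.042). In ATRA vs DMSO 6 of 17 were higher, the median was -0.05, and none passed at an unadjusted p under 0.05 either.

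Another 10 stress genes that Atf4 or Ddit3 is known to induce had a median log2 change of 0.45 between LE540 and DMSO, and 9 were higher (Gdf15 and Ero1l were not analysed here). None passed in limma, with 5 higher and 1 lower at an unadjusted p under 0.05. Sqstm1, an autophagy receptor, had a log2 change of 1.20 and Stc2, a secreted glycoprotein, of 0.98 (adjusted p = 0.23 each). These changes were 0.92 and 0.94 without LE540 replicate 1, and the median of the 10 was 0.30 with 8 higher. In LE540 vs ATRA 8 were higher with a median of 0.32 (6 and 0.13 without LE540 replicate 1) and none passed, with 4 higher and 1 lower at an unadjusted p under 0.05, and only with a block for replicate number did Stc2 pass (0.0844). In ATRA vs DMSO none had an unadjusted p under 0.05.

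The ER chaperones and the Atf6 and Xbp1 arms, which respond to misfolded protein beside the Atf4 arm, were measured by 20 genes. Of these, 11 were higher and 9 lower with LE540 than with DMSO, and the median log2 change was 0.06. None passed in limma, and 1 was higher at an unadjusted p under 0.05. Hspa5, the main ER chaperone BiP, had log2 values of 12.64, 12.35 and 12.53 in LE540, 11.75, 12.40 and 12.18 in ATRA and 12.33, 12.46 and 12.26 in DMSO explants. All 3 groups overlapped, and the log2 change between LE540 and DMSO was 0.16 (adjusted p = 0.783). Hspa5 was named as the best known gene of the list, after its values were seen. Dnajb9, a co-chaperone, had the largest change (0.92, adjusted p = 0.584), which was 0.36 without LE540 replicate 1, and Hyou1, another chaperone, had 0.50 (0.573), against 0.47 without that array. The median of the 20 without it was -0.01, with 10 higher and 10 lower. The median was -0.07 in ATRA vs DMSO and 0.12 in LE540 vs ATRA, with none passing and, at an unadjusted p under 0.05, none and 4 higher.

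**Figure D3:**
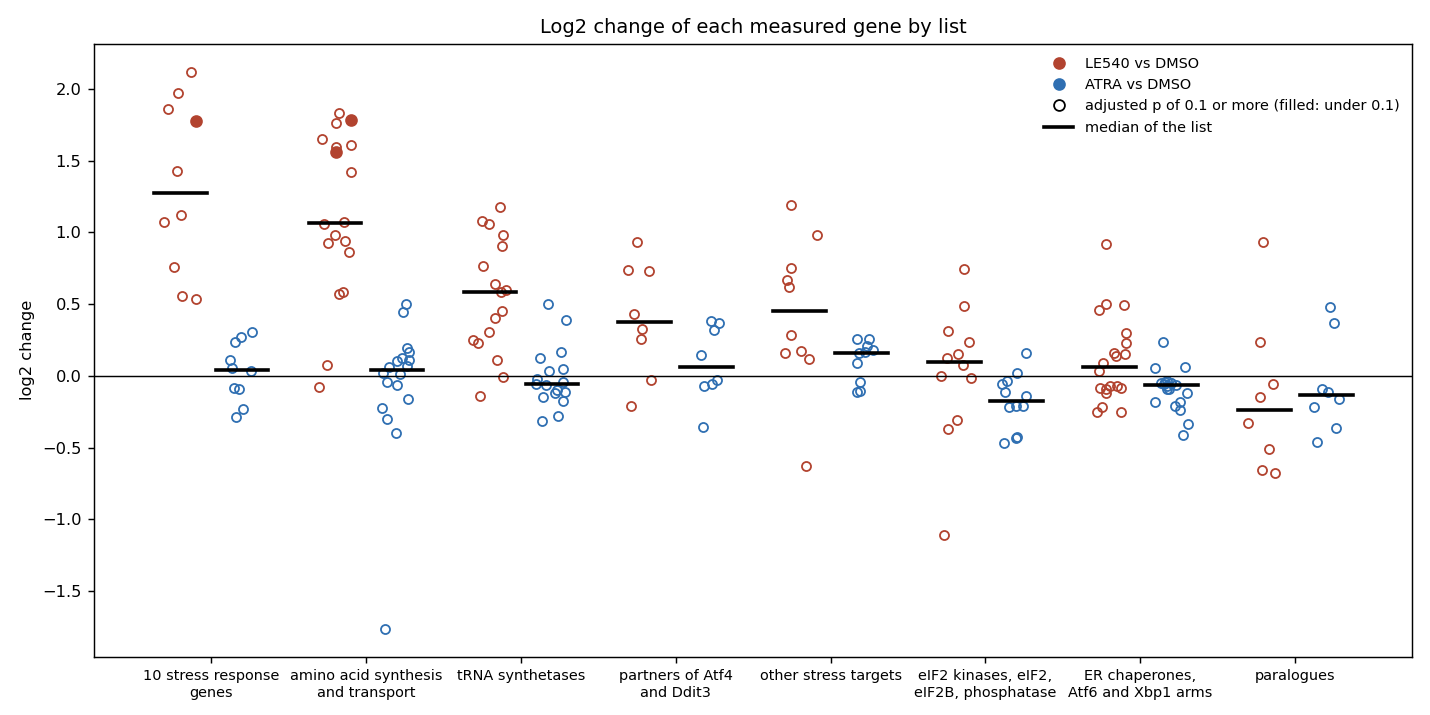
Log2 change of each measured gene (vertical axis) by list, LE540 vs DMSO left of ATRA vs DMSO within each list. Filled points have an adjusted p under 0.1 and bars are list medians; the LE540 vs DMSO medians are 1.27 for the 10 genes, 1.07 for amino acid synthesis and transport, 0.59 for tRNA synthetases and 0.06 for ER chaperones, and the ATRA vs DMSO medians lie between -0.18 and 0.16.

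**Figure D4:**
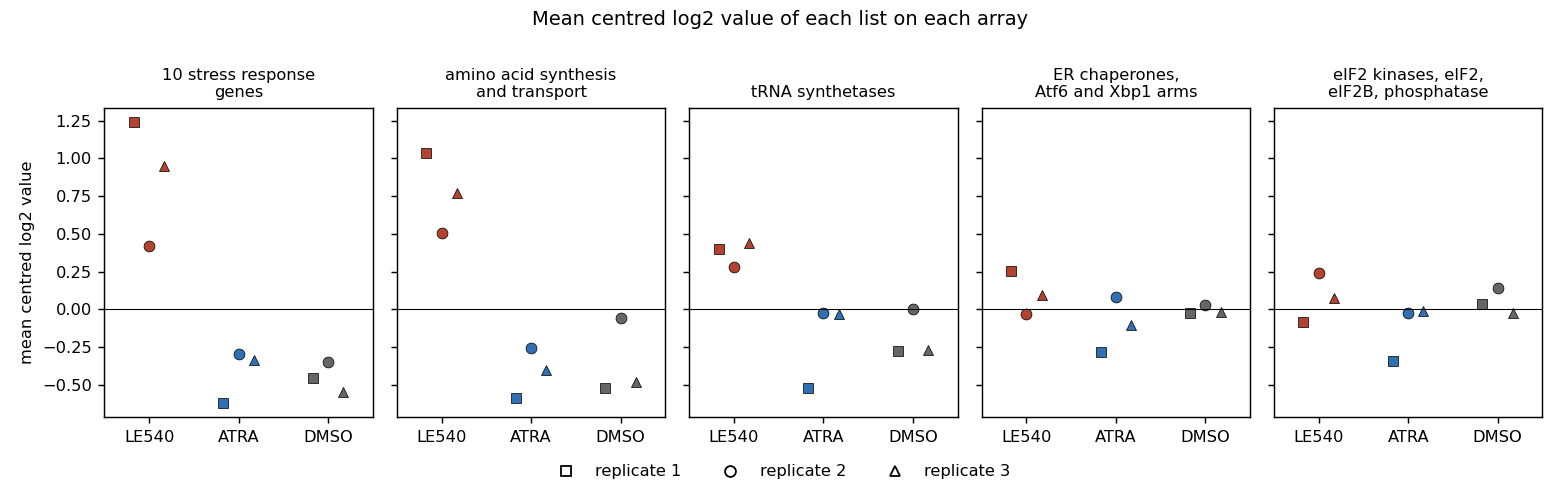
Mean centred log2 value (vertical axis) of 5 lists on each of the 9 arrays, in LE540, ATRA and DMSO explants from left to right, with symbols for the replicate number. For the 10 genes, the amino acid genes and the tRNA synthetases all 3 LE540 arrays lie above the other 6, while for the ER chaperones and the eIF2 list the groups overlap.

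The 8 genes outside the list whose log2 values over the 9 arrays followed the mean of the 10 most closely were Slc6a9 (r = 0.991), Slc25a33 (0.987), Hmox1 (0.981), Star (0.972), Abcc4 (0.971), Aldh1l2 (0.969), Slc3a2 (0.969) and Gnpnat1 (0.967), out of 19924 genes ranked. The 9 points fall into LE540 and the rest, so r carries that difference, and 5 of the 8 were again among the closest 8 over the 8 arrays without LE540 replicate 1. Hmox1, which breaks down haem, had log2 values of 12.02, 11.30 and 11.73 in LE540, 10.05, 10.15 and 9.89 in ATRA and 10.08, 10.15 and 9.70 in DMSO explants. It lay over 1 log2 unit higher on every LE540 array and rose against DMSO (log2 change 1.70, limma adjusted p = 0.0917; 0.022 to 0.437 as each array was left out) and against ATRA (1.65, 0.0171). Slc25a33, a mitochondrial pyrimidine nucleotide carrier, and Star, which moves cholesterol into mitochondria, had log2 changes of 1.13 (adjusted p = 0.155) and 1.07 (0.163) against DMSO and rose against ATRA (1.23, 0.0334, and 1.29, 0.0258). The calls against ATRA were lost for Slc25a33 without ATRA replicate 1 (0.114) or 3 (0.125), and for Star without ATRA replicate 3 (0.103). Those of Gnpnat1, an enzyme of amino sugar synthesis, were 1.27 (0.163) and 1.34 (0.0451), the second of which did not pass without LE540 replicate 1 (0.144) or ATRA replicate 3 (0.126). Those against DMSO of Abcc4, an efflux transporter, and Aldh1l2, a mitochondrial folate enzyme, were 0.90 (0.375) and 1.75 (0.328).

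The tissue label was read against markers of valve interstitial cells, the fibroblast-like cells of the valve: 11 of 12 lay above the median of every array. Their summed intensity was 15400 to 24000 in LE540, 28000 to 30800 in ATRA and 20800 to 26200 in DMSO explants, and 10 of 12 were lower with LE540 than with DMSO (median log2 change -0.26, and -0.09 with 7 of 12 lower without LE540 replicate 1). Against ATRA 11 of 12 were lower, and Vcan, which encodes the matrix proteoglycan versican, fell (log2 change -1.29, limma adjusted p = 0.0608; 0.0492 to 0.192 as each array was left out). In bulk tissue fewer cells of a type and less RNA per cell cannot be told apart. Cardiomyocyte markers, 10 of 17 above the median of every array, summed to 13300 to 23200 in LE540, 13700 to 22900 in ATRA and 13800 to 27700 in DMSO explants. By median, cardiomyocyte markers had log2 changes of 0.03 in LE540 vs DMSO (10 of 17 higher) and 0.37 in LE540 vs ATRA (14 higher), or 0.24 (13 higher) and 0.66 (16 higher) without LE540 replicate 1. Endothelial markers summed to 1750 to 3660 in LE540, 2680 to 6270 in ATRA and 1960 to 3730 in DMSO explants. All 12 were lower with LE540 than with ATRA (median log2 change -0.40, and -0.16 without LE540 replicate 1) and higher with ATRA than with DMSO (0.38), while 7 of 12 were lower with LE540 than with DMSO (-0.03, but 0.17 with 9 higher without LE540 replicate 1). None of these endothelial or cardiomyocyte changes passed in limma; at an unadjusted p under 0.05, 2 endothelial markers were lower and 1 cardiomyocyte marker higher in LE540 vs ATRA. In the fit blocked by replicate, Emcn, which encodes the endothelial glycoprotein endomucin, passed in LE540 vs ATRA (log2 change -1.84, adjusted p = 0.0144) and in ATRA vs DMSO (1.39, 0.0601). Of endothelial markers 4 of 12, of macrophage markers 3 of 11 and of lymphocyte markers 0 of 8 lay above the median of every array, and Cd3g and Ms4a1 lay below the lower quartile of all arrays, as did Tyr among melanocyte markers and Adipoq and Lep among adipocyte markers. Y-linked genes, which follow the sex of the pooled pups, had a mean centred log2 value of 0.26 ± 1.54 in LE540, 0.88 ± 0.79 in ATRA and -1.14 ± 1.33 in DMSO explants (SD, n = 3 each). With the Y-linked score or the cardiomyocyte score in the fit, all 10 stress response genes kept the sign of their change between LE540 and DMSO, while Ddit3 did not pass (adjusted p = 0.147 and 0.173). The part of the valve interstitial and endothelial markers in these results was not tested.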

How the data were processed

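Per the file headers and the submitters' processing notes, the deposited values are intensities that the authors summarized by RMA in Affymetrix Expression Console 1.1, with 1 value for each probe set on each array. They ran between 4.09 and 17798.2 with array medians of 123.61 to 128.13, a linear scale, so log2 was taken. Per the labels, Nugen kits served to amplify the RNA and to label it with biotin. Symbols came from the platform's probe annotation, whose genome build is not given in the sources used here. Of 28270 rows, 23397 had a gene symbol (21780 with 1 symbol, 1617 with several) and were tested, and 4873 had none. A gene was read through its single-symbol probe set of highest mean.

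A 3-group linear model over 9 arrays (limma 3.58.1, R 4.3.3, 6 residual degrees of freedom) gave LE540 vs DMSO, ATRA vs DMSO and LE540 vs ATRA, two-sided, with Benjamini-Hochberg adjustment over all probe sets tested; the threshold of 0.1 is that of the series' design text. The model was tested on simulated data with independent normal noise, equal spread in all groups and no outlying array. That test therefore does not cover LE540 replicate 1 or the wider spread of the LE540 arrays. No p was adjusted over a list, and lists got no test. One item of the lists is not reported here. The members, lists and motifs were chosen with earlier results of these data known.

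Named were all 10 genes; of each list up to 4 passing genes, largest change first, or else the 2 largest changes in LE540 vs DMSO; and the 8 genes closest by Pearson r. Genes named beyond this (Hspa5, Psat1, Phgdh, Shmt2, Gpt2, Yars and Emcn) were chosen after their values were seen.

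Equal replicate numbers were checked by correlating deviations from group means. For ATRA and DMSO r was 0.143, 0.342 and 0.220. For LE540 and ATRA r was 0.261, 0.282 and 0.269, and for LE540 and DMSO 0.00946, 0.215 and 0.126. The same numbers run through all 3 groups, so pairing cannot hold for some comparisons only, and it was left undecided. The fit blocked by replicate applies it to all 3 groups. The main fit has no block, so its SE, intervals and p do not use this pairing. Results with the pairing are given where a fit blocked by replicate is named. Precision is limited by 3 arrays a group, each a pool. The 20 alternatives covered the arrays fitted, normalization, filters, prior, array weights, threshold, covariates and leaving out each array.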

Additional observations from a re-analysis of the deposited data

How the results depend on the processing

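All 10 genes kept the sign of their change in LE540 vs DMSO and in LE540 vs ATRA under all 20 alternatives, and no called change reversed. Calls depended on the setting. In LE540 vs DMSO, where 7 probe sets and 1 of the 10 genes passed, the counts were 1 and 0 with only the 2 groups in the fit, 1 and 0 with the replicate block, 0 and 0 with quantile normalization, 0 and 0 with all rows of the table, 12 and 3 (Ddit3, Chac1 and Asns) with 1 probe set per gene, 0 and 0 at an adjusted p under 0.05, and 0 and 0 with the cardiomyocyte score. Array weights, in which LE540 replicate 1 had the lowest weight (0.302), gave 2 genes, and the Y-linked score gave 0. Leaving out each array gave 0 to 297 probe sets, 0 to 5 genes and medians of 1.04 to 1.61. Ddit3 passed in 7 of the 20 alternatives in LE540 vs DMSO, and in all 20 in LE540 vs ATRA (adjusted p = 0.00394 to 0.0883). With the replicate block, its adjusted p in LE540 vs DMSO was 0.134. In ATRA vs DMSO none of the 10 genes passed under any alternative. There 19 probe sets passed, against 9 with only the 2 groups, 29 with the replicate block, 12 with 1 probe set per gene, 71 with array weights, 8 at 0.05, 7 with the Y-linked score, 8 with the cardiomyocyte score and 4 to 22 as each array was left out, with a median for the 10 genes of -0.07 to 0.17. In LE540 vs ATRA, 141 probe sets passed, against 25 with only the 2 groups (1 gene, Ddit3), 221 with the replicate block, 60 at 0.05, 61 with the cardiomyocyte score and 54 to 278 as each array was left out, when 1 to 7 genes passed and the median was 1.13 to 1.66. With fewer arrays in a fit, the estimate of the spread rests on fewer degrees of freedom; otherwise the cause was not tested. The number of arrays limits what can be called, and signal over background is unknown for these values.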
